A study of Mus musculus with 12 samples.

Results

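Wnt ligands were examined in RNA-seq data from whole mouse adrenals. The genes described were *Wnt2*, *Wnt2b*, *Wnt3*, *Wnt4*, *Wnt5a*, *Wnt5b*, *Wnt6*, *Wnt9a*, *Wnt10b* and *Wnt11*, matched by symbol in the deposited normalized table and by Ensembl identifier in the count table. All 10 were found among the 39017 genes listed, which hold 19 Wnt ligand genes in all. The filter on low counts kept 7 of the 10 for testing, and *Wnt2*, *Wnt3* and *Wnt10b* were below it. Of the 9 other Wnt genes, *Wnt7b* and *Wnt10a* passed the same filter.

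Adrenals of 6 control mice (Ctrl, genotype ASCre/+) were compared with those of 6 βCat-GOF mice (bigenic ASCre/+ ::Ctnnb1fl(ex3)/+), with 1 library per mouse. All were females of 10 to 11 weeks on a mixed sv129-C57Bl/6 background, and no treatment is listed. The control sample titles read Wt_Ctr, and the paper calls these adrenals wild type. By the genotypes listed, both groups carry Cre at the *Cyp11b2* (aldosterone synthase, AS) locus. This locus is active in the zona glomerulosa (zG), the outer steroid-producing layer of the cortex. In βCat-GOF mice Cre removes exon 3 of 1 *Ctnnb1* allele, which stabilizes β-catenin in zG cells and their descendants. RNA came from the whole gland trimmed of fat, so each value is an average over capsule, cortex, medulla and vessels.

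Wnt ligands are secreted, lipid-modified glycoproteins. Porcupine (*Porcn*) attaches the lipid, Wntless (*Wls*) carries the ligand to the cell surface, and Frizzled receptors bind it. Together with LRP co-receptors this halts the breakdown of β-catenin, which then acts with TCF and LEF factors on target genes, while ligands such as Wnt5a and Wnt11 also act through Ror and Ryk receptors without β-catenin. In the adrenal cortex Wnt4 is known as a ligand of the zG, and R-spondin from the capsule strengthens the signal there.

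Reads counted on genes numbered 14090378 to 25625494 per Ctrl mouse and 13484675 to 24951480 per βCat-GOF mouse, so that 3 counts correspond to 0.114 to 0.237 CPM (counts put on 1 common library size). The labels of all Ctrl mice begin with the number 1367, those of 5 βCat-GOF mice with 1369 and that of βCat-GOF mouse 5 with 1387, so what this number stands for cannot be told apart from genotype. For 3 pairs of mice the label of 1 mouse extends that of the other. Gene counts within these pairs were set against each other by chi-square, which divided by its degrees of freedom was 43 to 46.6, inside the 16.9 to 149 of the 27 other pairs within groups, so each library was kept as a sample. The labels do not say that these pairs are separate animals, and p-values measure only the spread between these libraries. Total *Ctnnb1* was 21625 ± 858 normalized counts in Ctrl and 21397 ± 1151 in βCat-GOF (SD, n = 6 mice each), and gene counts cannot show the loss of 1 exon. Of 10 canonical β-catenin targets, 4 were higher in βCat-GOF with edgeR, where 2.16% of all genes were. DESeq2 called 8 higher, with 7.3% of all genes called in either direction, and 9 had higher means, against 50% of all genes. The study named *Axin2*, *Tcf7*, *Lef1*, *Notum*, *Nkd1* and *Apcdd1* as upregulated in these same libraries, so these counts are not independent of its results. Steroidogenic and medullary markers were present, and the kidney marker *Umod* had 0 counts in all 12 mice.

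The bases before *Wnt4* and *Wnt6*, the ligands with the lowest p-values in the comparison of groups, are shown first. Promoter sequences come from RefSeq (GRCm38.p6), which has entries for 9 of the 10 genes, all but *Wnt5a*. *Wnt4* lies at chr4:137277489-137299726 on the plus strand (ENSMUSG00000036856). The first line holds the 104 bases before its start, and the second the 250 bases before *Wnt6* (chr1:74771892-74785322, plus strand, ENSMUSG00000033227). Capitals mark CpG, the dinucleotide that carries DNA methylation.
Wnt4 (chr4:137277385-137277488, plus): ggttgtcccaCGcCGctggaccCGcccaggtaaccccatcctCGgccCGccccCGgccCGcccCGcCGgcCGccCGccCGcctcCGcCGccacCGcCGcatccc
Wnt6 (chr1:74771642-74771891, plus): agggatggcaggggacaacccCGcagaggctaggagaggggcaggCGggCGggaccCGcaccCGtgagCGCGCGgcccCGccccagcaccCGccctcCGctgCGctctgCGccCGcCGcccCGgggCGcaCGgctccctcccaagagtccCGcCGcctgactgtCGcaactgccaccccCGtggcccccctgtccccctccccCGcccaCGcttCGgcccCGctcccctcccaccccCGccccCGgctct

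The stretches hold 16 CpG in 104 bases and 28 CpG in 250 bases. Over full windows of equal length, from 250 bases before to 50 bases after the RefSeq start, *Wnt4* had 51 CpG and *Wnt6* had 31, and GC content was 84.3% and 76.7%. The median over 32851 mouse promoter windows was 52.7%, and 99.8% of windows had a lower GC content than that of *Wnt4*. The first window listed for each of the 9 genes had 65.7% to 84.3%. The further windows were lower, with 53% and 55% for *Wnt5b* and 59.3% for *Wnt11*. For *Wnt4* the RefSeq start lies inside the gene position given above. Most of its full window (chr4:137277385-137277684) therefore falls within the gene, not before it.

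Because β-catenin works through TCF and LEF factors, the 12 windows of these 9 genes were searched on both strands for the word CTTTGAA or CTTTGAT and for the word CTTTGTA or CTTTGTT. At least 1 word was in 3 of 12 windows (25%), against 16.9% of all windows. The following stretches show those matches, with the word or its reverse complement in capitals.
Wnt5b (chr6:119449441-119449467, minus): gtaagtctctCTTTGATctgctccctg
Wnt11 (chr7:98835051-98835077, plus): acgtgggcggATCAAAGcgacggtccg
Wnt3 (chr11:103774183-103774209, plus): ctcaagtggaCTTTGTTccaactattg

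The *Wnt5b* word lies in an intron, 71 bases before the third start that RefSeq lists for the gene. The *Wnt11* word is outside the gene, 51 bases before the start, and the *Wnt3* word is in an exon, 18 bases after the start. Words of the steroidogenic factor SF-1 (CAAGGTCA or its variant CAAGGCCA, both strands) were in 0 of the 12 windows, against 3.92% of all windows. A match is only a match of letters in this window.

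*Wnt4* was by far the most abundant of these ligands. Levels between genes are compared per exon length, as RPKM, the CPM of a gene divided by its exon length in kilobases. In Ctrl adrenals *Wnt4* measured 66.5 ± 20.5 RPKM (SD, n = 6 mice), higher than 95.8% of 14827 tested genes with a known length. *Wnt5a*, which acts largely without β-catenin, followed at 7.84 ± 0.903 RPKM, so that the level of *Wnt4* was 8.48 times that of the next ligand. *Wnt2b*, a ligand of the canonical branch, measured 4.36 ± 1.28 RPKM. The ranges of *Wnt4*, *Wnt5a* and *Wnt2b* did not overlap, and this order was the same in each of the 6 mice. With the longest transcript as length, the highest *Wnt2b* (7.92 RPKM) slightly exceeded the lowest *Wnt5a* (7.8 RPKM).

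Below these came *Wnt6* at 1.92 ± 0.41 RPKM and *Wnt5b*, a close relative of *Wnt5a*, at 1.91 ± 0.277 RPKM. These 2 levels could not be separated, since *Wnt6* was the higher in 2 of 6 mice. *Wnt9a*, known from joint formation, measured 0.71 ± 0.178 RPKM. The remaining 4 were near the floor of detection. *Wnt2*, a lung and vessel ligand, was at 0.15 ± 0.0603 RPKM, and *Wnt11*, known from ureteric branching and cell movement, was at 0.0907 ± 0.023 RPKM. *Wnt3* at 0.0377 ± 0.0266 RPKM and *Wnt10b*, a ligand known from bone and fat, at 0.00779 ± 0.0137 RPKM were lowest. Ranges of these 4 overlapped from each to the next.

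**Figure D1:**
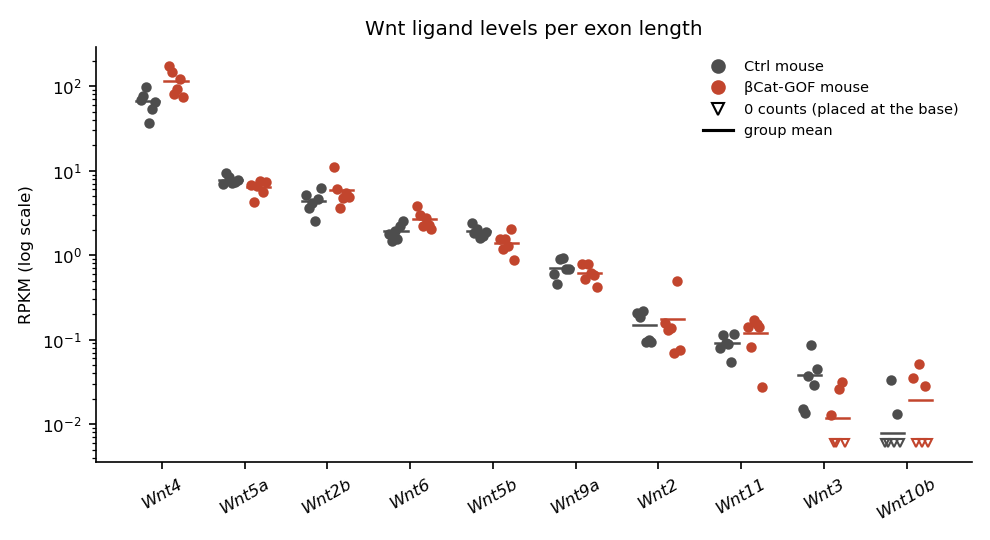
RPKM of the 10 Wnt ligands on a log axis, 1 point per mouse for 6 Ctrl and 6 βCat-GOF mice, with group means as bars and open triangles at the base for mice with 0 counts. *Wnt4* is the highest ligand in each mouse, and *Wnt3* and *Wnt10b* include mice with 0 counts.

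In βCat-GOF adrenals *Wnt4* stood at 115 ± 40.3 RPKM, 18 times the level of *Wnt5a* at 6.38 ± 1.24 RPKM. *Wnt2b* at 5.96 ± 2.6 RPKM was no longer separate from *Wnt5a*, which was the higher in 4 of 6 mice. *Wnt6* (2.68 ± 0.654 RPKM) and *Wnt5b* (1.41 ± 0.395 RPKM), which overlapped in controls, barely separated here. The lowest *Wnt6* was 2.03 RPKM and the highest *Wnt5b* 2.02 RPKM. With the longest transcript as length these values were 2.15 and 2.26 RPKM, so the ranges overlapped.

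The question behind the comparison of groups is how gain of β-catenin in the zG alters the transcriptome of the adrenal, here the supply of Wnt ligand. No ligand passed the test across all genes. With edgeR's quasi-likelihood test and an adjusted p under 0.05, 0 of 7 tested ligands were higher and 0 were lower, while 3.68% of the 14953 genes tested were called (2.16% higher and 1.52% lower). At an unadjusted p under 0.05 there were 4 of 7, against 20.4% of all genes. Of these, *Wnt4* and *Wnt6* were on the higher side in βCat-GOF, where 9.73% of all genes were, and *Wnt5a* and *Wnt5b* on the lower side, where 10.7% were. DESeq2, the tool of the original study, called *Wnt4* alone of the 10, with 7.3% of all genes called. No ligand had groups that did not overlap, which was the case for 2.78% of genes. The median log2 fold change of the 7 was 0.41, with a higher mean for 4 of them, against a median of 0.000105 and a higher mean for 50% of all genes tested.

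*Wnt4* had the lowest p of the ligands. Its normalized counts (counts divided by the size factor of the library) ran from 3078 in Ctrl mouse 4 through a median of 5626 to 8197 in Ctrl mouse 3. In βCat-GOF mice they ran from 6299 in mouse 6 through a median of 8933 to 14263 in mouse 1. βCat-GOF mice 1, 2 and 5 lay above every Ctrl mouse and the other 3 lay inside the Ctrl range, above its median. The means were 5575 ± 1731 and 9647 ± 3242, a log2 fold change of 0.79 (SE 0.245), or 1.73-fold with a 95% interval of 1.2 to 2.49. The adjusted p was 0.095 with edgeR and 0.021 with DESeq2. With DESeq2 and a mean of 7611 over all mice, *Wnt4* met the limits of the study. These were a fold over 1.4, an adjusted p under 0.05 and a mean over 100. The study's methods also list a qRT-PCR assay for *Wnt4*, whose result was not used here. The exact permutation test over the 924 splits of 12 mice gave a two-sided, unadjusted p of 0.019, where the smallest possible is 0.0022.

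*Wnt6*, known from kidney tubule formation, also had a higher mean at a far lower level. Its normalized counts were 64.2, 82.1 and 112 (lowest, median and highest) in Ctrl and 90.7, 112 and 163 in βCat-GOF. βCat-GOF mice 1, 2 and 4 exceeded every control, and all 6 exceeded the Ctrl median. The log2 fold change was 0.49 (SE 0.192), or 1.4-fold with a 95% interval of 1.05 to 1.86 (adjusted p = 0.18; exact permutation p = 0.024, unadjusted).

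*Wnt2b* (chr3:104945272-104961921, minus strand, ENSMUSG00000027840) rested on 1 mouse for much of its difference. It ran through 210, 365 and 527 normalized counts in Ctrl (lowest, median, highest) and 308, 442 and 902 in βCat-GOF. βCat-GOF mouse 1 alone lay above the controls. The log2 fold change of 0.46 (SE 0.257; 1.37-fold, 95% interval 0.935 to 2.01) had an adjusted p of 0.34, and it was 0.20 without that mouse and 0.24 without the 3 mice whose labels extend another label, of which it is 1. The summed CPM of capsule and stroma markers was also highest in βCat-GOF in that mouse, at 765. βCat-GOF mouse 5 had a sum of 723 with 461 normalized counts of *Wnt2b*. The highest sum of all mice, 866, was in Ctrl mouse 3, whose *Wnt2b* of 348 lay below the Ctrl median. A link between *Wnt2b* and these markers was not tested.

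The 2 Wnt5 ligands had lower means in βCat-GOF. *Wnt5a* (chr14:28504750-28527448, plus strand, ENSMUSG00000021994) had 1102, 1183 and 1449 normalized counts in Ctrl (lowest, median, highest) and 673, 1052 and 1185 in βCat-GOF. βCat-GOF mice 1, 2, 3 and 5 lay below every control, and mice 4 and 6 lay within the Ctrl range. The log2 fold change was −0.30 (SE 0.129; 0.813-fold, 95% interval 0.671 to 0.985), with an adjusted p of 0.21 and an exact permutation p of 0.039, unadjusted. Without βCat-GOF mouse 2, the lowest, it was −0.19.

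*Wnt5b* (chr6:119432531-119544347, minus strand, ENSMUSG00000030170) had 85.1, 98.2 and 127 normalized counts in Ctrl and 47.1, 74.2 and 108 in βCat-GOF. Here 5 of 6 βCat-GOF mice lay below every control, and mouse 5 lay inside the Ctrl range. The log2 fold change was −0.43 (SE 0.194; 0.741-fold, 95% interval 0.556 to 0.989; adjusted p = 0.23; exact permutation p = 0.032, unadjusted).

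**Figure D2:**
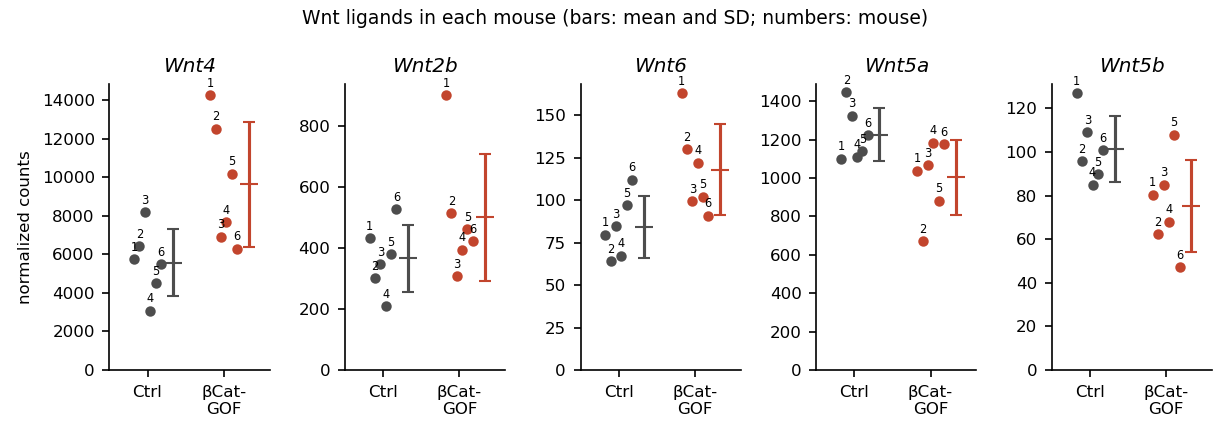
Normalized counts of *Wnt4*, *Wnt2b*, *Wnt6*, *Wnt5a* and *Wnt5b* in each mouse, with the mouse number beside each point and the mean and SD of 6 mice as bars. Groups overlap in each panel, and βCat-GOF mouse 1 is highest for *Wnt4*, *Wnt2b* and *Wnt6*.

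*Wnt9a* (chr11:59306928-59333552, plus strand, ENSMUSG00000000126) had 30, 46 and 60.9 normalized counts in Ctrl (lowest, median, highest) and 28.7, 40.3 and 52.8 in βCat-GOF. The groups overlapped almost fully, with a log2 fold change of −0.19 (SE 0.22) and an adjusted p of 0.67. The 95% interval of the fold, 0.631 to 1.22, leaves room for changes in either direction.

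The 4 rare ligands are limited by counting. *Wnt11* (chr7:98835112-98855195, plus strand, ENSMUSG00000015957) had 2 to 16 raw counts per mouse, with means of 7.49 ± 1.89 and 9.92 ± 4.49 normalized counts. βCat-GOF mice 1, 3, 4 and 5 lay above the controls and mouse 6 below them (log2 fold change 0.41, SE 0.36, adjusted p = 0.56). *Wnt2* (chr6:17988940-18030585, minus strand, ENSMUSG00000010797) had 2 to 23 raw counts, 45 over the Ctrl mice and 50 over the βCat-GOF mice, of which mouse 5 held 23 (exact permutation p = 0.96).

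*Wnt3* (chr11:103774150-103817957, plus strand, ENSMUSG00000000125) had 14 counts over the Ctrl mice and 4 over the βCat-GOF mice, with 3 mice at 0. *Wnt10b* (chr15:98770712-98778150, minus strand, ENSMUSG00000022996) had 4 and 9, with 7 mice at 0. For both, 11 of 12 mice were at or below 3 counts, so no fold is given. The exact permutation p was 0.041 for *Wnt3* and 0.39 for *Wnt10b*, at counts near the floor of detection. Of the 7 ligands that passed the filter, 4 had a permutation p under 0.05, against 18.2% of the genes that passed it, and these p-values are unadjusted. *Wnt3*, outside the filter, was the other ligand with such a p.

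**Figure D3:**
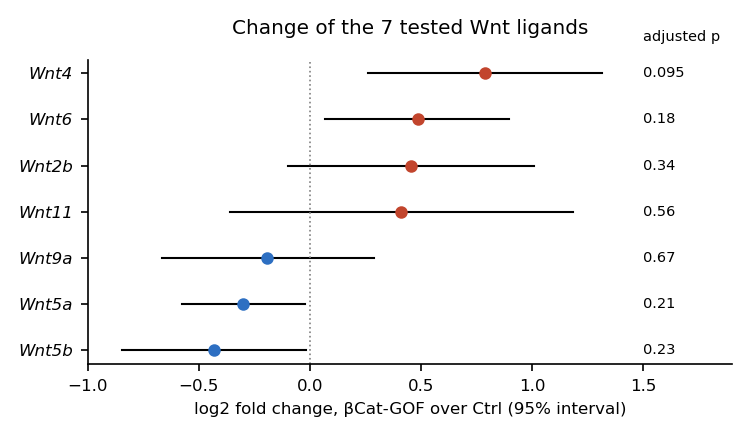
Log2 fold change (βCat-GOF over Ctrl) of the 7 tested ligands with 95% intervals from edgeR, and the adjusted p at the right. The intervals of *Wnt4* and *Wnt6* lie above 0 and those of *Wnt5a* and *Wnt5b* below it, and the lowest adjusted p is 0.095.

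Summed over the 10 ligands, RPKM was 83.5 ± 21.7 in Ctrl and 132 ± 42.7 in βCat-GOF. The 9 ligands other than *Wnt4* summed to 17 ± 1.78 and 17.4 ± 3.46. *Wnt4* thus made up 78.7% ± 4.29 of the ligand RNA in Ctrl, between 72.5% and 84.5%, and 86.2% ± 3.11 in βCat-GOF, between 82.4% and 90.7%. *Wnt5a* made up 9.84% and 5.38%. The ratio of *Wnt4* to *Wnt5a* RPKM within a mouse was 8.41 ± 2.15 in Ctrl, from 5.16 to 11.5, and 19.3 ± 9.74 in βCat-GOF, from 9.97 to 34.8. In 5 of 6 βCat-GOF mice this ratio exceeded that of every control. The ratio was chosen after the values of both genes had been seen, and is given without a test.

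Markers of the zG were high in 3 βCat-GOF mice with high *Wnt4* (mice 1, 2 and 5), but also in mouse 6, whose *Wnt4* was the lowest of its group. Of 8 zG markers, 4 were higher in βCat-GOF (*Agtr1b*, *Vsnl1*, *Agtr1a* and *Dab2*), and 7 of 8 had higher means, against 2.16% and 50% of all genes. *Cyp11b2*, the enzyme that defines aldosterone-producing cells, was at 5162 ± 2063 and 4544 ± 2824 normalized counts (adjusted p = 0.82). The summed CPM of the list was 1190 to 1651 in Ctrl and 1503 to 2716 in βCat-GOF, and *Wnt4* was 155 to 408 and 309 to 729 CPM. βCat-GOF mice 1 and 2 were the highest in both. Per 100 reads of the zG list there were 20.7 ± 4.72 reads of *Wnt4* in Ctrl (13 to 25.8) and 22.9 ± 3.98 in βCat-GOF (15.4 to 26.9), ranges that overlap almost fully. *Dab2*, itself called higher, had the largest counts of the list (means of 13477 in Ctrl and 22811 in βCat-GOF, normalized). It therefore weighs most in the list sum and in this ratio. In whole glands, more zG cells and more *Wnt4* RNA per zG cell cannot be told apart.

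**Figure D4:**
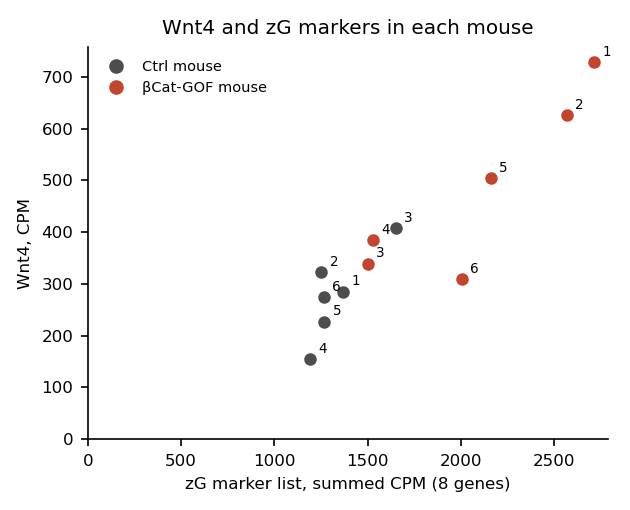
*Wnt4* CPM against the summed CPM of 8 zG markers in each of 12 mice, numbered within the groups. βCat-GOF mice 1, 2 and 5 are high on both axes, and βCat-GOF mouse 6 has 309 CPM of *Wnt4* at a marker sum of 2006 CPM.

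Markers of other cells gave few calls, and 3.68% of all genes tested were called. Of 10 capsule and stroma markers 0 were called, with sums of 477 to 866 CPM in Ctrl and 363 to 765 in βCat-GOF, and of 6 endothelial markers 0 were called (591 to 754 and 521 to 760 CPM). Among 6 macrophage markers *Adgre1* was lower (182 to 318 and 166 to 289 CPM for the list). The part of these cells in the values of *Wnt2b*, *Wnt6*, *Wnt5a* and *Wnt5b* was not tested.

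Within groups, *Wnt2b* and *Wnt6* varied together. After each group was centred on its mean, log2 CPM of the 2 genes had a Pearson r of 0.82 over 12 mice, the highest of the 21 pairs of tested ligands. *Wnt5b* with *Wnt11* reached 0.70 and *Wnt2b* with *Wnt4* 0.69. *Wnt5a* stood apart, with r from −0.19 to 0.10 toward the other 6. These values describe points that share libraries, and *Wnt11* has few counts.

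Over 14952 other tested genes, those most like *Wnt4* were *Gbp6* (r = 0.936), *Cpe* (0.933) and *Ccnd2* (0.924). *Gbp6* is an interferon-induced GTPase of a multigene family whose members can share reads, *Cpe* encodes a protease that matures peptide hormones, and *Ccnd2* encodes a D-type cyclin. Between groups the 3 differed in direction, with log2 fold changes of −0.84 (adjusted p = 0.069) for *Gbp6*, 0.64 (adjusted p = 0.024) for *Cpe* and 0.45 (adjusted p = 0.22) for *Ccnd2*. For *Wnt6* the nearest were *Bnc2* (0.926), a zinc finger gene, *B3gnt9* (0.902) and *Fap* (0.901), which encodes fibroblast activation protein. *Wnt2b* was nearest to *I830077J02Rik* (0.93; mean of 15.4 normalized counts), *Col8a2* (0.923), a collagen gene, and *Nicn1* (0.888). *Wnt5a* was nearest to the zinc finger genes *Zfp143* (0.921) and *Zfp3* (0.88) and to *5730409E04Rik* (0.872). For these 3, r was 0.633, 0.674 and 0.706 in Ctrl and 0.988, 0.944 and 0.948 in βCat-GOF. All these values are the highest of 14952 over 12 mice, so some would be high by chance alone, and none was tested.

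Several of the ligand genes have a Wnt gene as neighbour. *Wnt6* and *Wnt10a* lie 6.19 kb apart on the same strand of chromosome 1. *Wnt10a* had 14.9 ± 5.89 and 23.1 ± 10.4 normalized counts, a log2 fold change of 0.64 (SE 0.359, adjusted p = 0.34) beside 0.49 for *Wnt6*. The pairs *Wnt10b* and *Wnt1* (11.7 kb), *Wnt9a* and *Wnt3a* (16.2 kb), and *Wnt3* and *Wnt9b* (24.3 kb) lie on opposite strands. *Wnt1* and *Wnt3a* had at most 1 count in any mouse, and *Wnt9b* had 1 to 16. *Wnt7b* had 16.9 ± 7.87 and 20.8 ± 13 normalized counts (adjusted p = 0.76), *Wnt16* at most 8 counts, *Wnt8b* at most 5, *Wnt8a* at most 2, and *Wnt7a* 0 in each mouse.

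*Cdc42*, 20 kb from *Wnt4*, was at 12990 and 13823 normalized counts (adjusted p = 0.73). *Cacna2d3*, a calcium channel subunit gene 377 kb from *Wnt5a*, was higher in βCat-GOF (68.6 ± 16.8 against 162 ± 44.8, log2 fold change 1.24, adjusted p = 0.0075), opposite to the direction of the *Wnt5a* mean. Exons of *Wnt11* overlap *Gm8398* over 8.8% of their length, and those of *Wnt5a* overlap *Gm2670* over 4.58%, both on the opposite strand. These partners had at most 1 and 2 counts, and the other 8 ligands had no exon overlap.

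Of 4 genes that process Wnt ligands, 2 were called, both higher, where 2.16% of all genes were. *Porcn*, needed to make any active ligand, was at 225 ± 21.5 and 204 ± 52.9 normalized counts (log2 fold change −0.15, SE 0.169, adjusted p = 0.67). *Wls*, the carrier, was at 2376 ± 216 and 2507 ± 457 (0.07, SE 0.122, adjusted p = 0.79). Both enzymes that inactivate secreted ligand rose in βCat-GOF. *Notum*, which removes the lipid and is itself a β-catenin target, rose from 87.8 ± 15.4 to 371 ± 145 (log2 fold change 2.08, SE 0.251, adjusted p = 0.00066) without overlap of the groups. *Trabd2b*, a protease that trims the ligand, rose from 48.9 ± 17.4 to 145 ± 93 (1.58, SE 0.408, adjusted p = 0.048). Its groups overlapped, with 35.8 to 80 in Ctrl and 58.6 to 276 in βCat-GOF. Exons of *Notum* overlap genes of the opposite strand over 38.1% of their length. With the strand setting not given, how reads in the overlap were assigned is not known.

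Of the receptors, 1 of 16 was higher and 0 were lower, where 2.16% and 1.52% of all genes were. DESeq2 called 2 higher and 1 lower, with 7.3% of all genes called in either direction. The receptor called higher by edgeR was *Ror2*, a receptor for Wnt5a, with 128 ± 17.5 and 282 ± 104 normalized counts (log2 fold change 1.14, SE 0.221, adjusted p = 0.012), while *Wnt5a* itself had the lower mean in βCat-GOF. The other Ror receptor, *Ror1*, named after its values were seen, had the lower mean, with 142 ± 28.7 and 91.6 ± 25.1 (−0.63, SE 0.208, adjusted p = 0.11 with edgeR and 0.037 with DESeq2). *Fzd5*, also named after its values were seen, was the other receptor higher with DESeq2. It had 325 ± 47.2 and 479 ± 97.9 normalized counts (0.56, SE 0.148, adjusted p = 0.054 with edgeR and 0.0065 with DESeq2). Of 12 secreted antagonists, 7 were tested and 1 was lower, where 1.52% of all genes were. *Frzb*, which binds Wnt outside the cell, fell from 7774 ± 748 to 3945 ± 758 normalized counts without overlap (log2 fold change −0.99, SE 0.12, adjusted p = 0.00066). Of 9 genes of the R-spondin module, 6 were tested and 1 was higher, where 2.16% of all genes were. It was *Rnf43*, a ligase that removes Frizzled receptors (162 ± 29.3 against 271 ± 39.9, log2 fold change 0.74, SE 0.146, adjusted p = 0.013). DESeq2 also called *Rnf43* higher and called *Lgr5* lower, with 7.3% of all genes called in either direction. *Lgr5*, named after its values were seen, had 1433 ± 535 and 788 ± 251 normalized counts (−0.87, SE 0.28, adjusted p = 0.11 with edgeR and 0.03 with DESeq2).

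Among the 10 canonical targets *Notum*, *Nkd1* (1.81, adjusted p = 0.0019), *Apcdd1* (1.45, adjusted p = 0.0062) and *Tcf7* (0.52, adjusted p = 0.01) were higher by log2 fold change. Of these, *Nkd1* and *Apcdd1* encode inhibitors of Wnt signaling and *Tcf7* a partner of β-catenin. In the branch that works through cell polarity and calcium, 4 of 11 genes were higher, where 2.16% of all genes were. These were *Nfatc4* (log2 fold change 1.53, adjusted p = 0.0084), *Daam2* (1.27, adjusted p = 0.019), *Dact1* (1.05, adjusted p = 0.029) and *Prickle1* (0.61, adjusted p = 0.023). The study had named *Nfatc4*, *Daam2*, *Dact1* and *Ror2* as upregulated in these same libraries, so their calls are not independent of its results. Exons of *Dact1* overlap an opposite-strand gene over 34.9% of their length, with the same limit as for *Notum*. Median log2 fold changes were 0.41 for the tested ligands, 0.157 for the receptors, −0.113 for the antagonists and 0.8 for the canonical targets. The ligand median is the value of *Wnt11*, which has few counts, and the 7 ligands ran from −0.43 to 0.79.

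**Figure D5:**
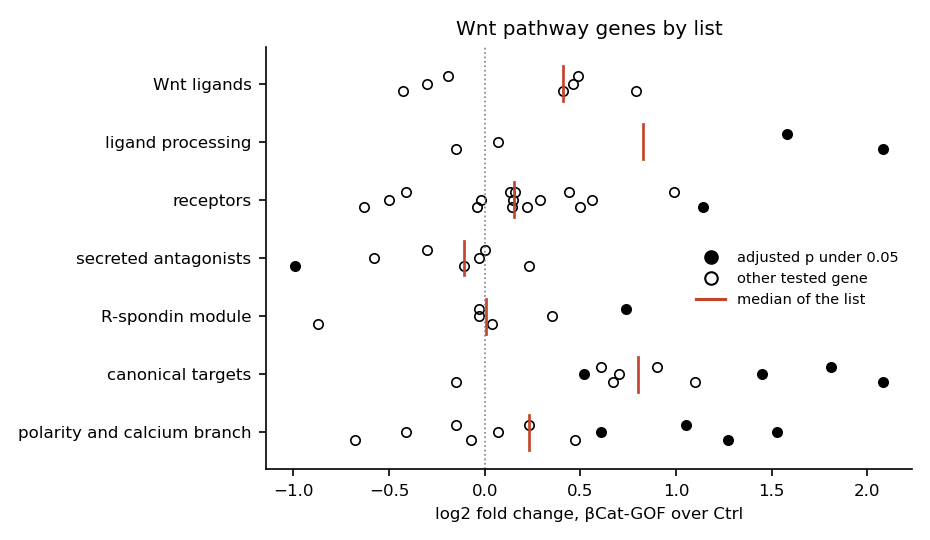
Log2 fold change (βCat-GOF over Ctrl) of each tested gene in 7 lists of the Wnt pathway, with filled points for an adjusted p under 0.05 (edgeR) and a red bar at the median of each list. The ligand row holds 0 filled points, and *Notum* appears in the rows of ligand processing and canonical targets.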

How the data were processed

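RNA of 12 adrenal samples was sequenced from TruSeq mRNA libraries. Per the submitters' processing notes, the authors aligned reads to mm10 with STAR and counted them per gene with featureCounts 1.4.4. The counts deposited by the authors are raw, and the deposited signal table holds counts divided by 1 size factor per library (DESeq2 1.6.3). Annotation release and strand setting are not given in the sources used here. No column was unmapped (0 columns).

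The counts were tested with edgeR 4.0.16 in R 4.3.3 (TMM, filterByExpr, quasi-likelihood, group as the only term, two-sided, Benjamini-Hochberg over 14953 genes). Normalized counts were recomputed with DESeq2 1.42.0 median-of-ratios factors. RPKM used TMM-scaled library sizes and the union of exons in GENCODE M21 (GRCm38), in which 37693 identifiers have a position. Exact permutation tests compared mean log2(normalized count + 1). Likeness used log2 CPM with a prior count of 2. Alternatives were DESeq2 without and with its prior, other size factors, other filters and call limits, a test against a fold of 1.4, 1 surrogate variable (sva 3.50.0) and leaving out mice. The steps were tested on simulated data with 200 changed genes, split evenly between 2-fold and 3-fold changes. There edgeR recovered 71 of the 2-fold and 89 of the 3-fold changes with 9 false calls. DESeq2 recovered 76 and 95 with 42 false calls. Exon overlap was read from the annotation and copies were searched with blastn 2.17.0 (a copy has at least 95% identity over 10% of the transcript), under Python 3.11.15, and plots were drawn with matplotlib 3.10.9.

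Members and gene lists were chosen with earlier results of these data known. *Ror1*, *Fzd5* and *Lgr5* were named in addition to the rule that follows, after their values were seen. Named genes are the 10 ligands, *Porcn* and *Wls*, at most 4 called genes with the largest change from each pathway list, the 3 genes most like each ligand with a mean over 100 normalized counts, *Ctnnb1* and its targets, and genes overlapping or next to a ligand gene. Of the marker lists, 1 of 3 zona fasciculata genes was called (*Akr1b7*, higher), and 0 of 2 X-zone, 7 medulla, 4 smooth muscle, 3 tested Schwann cell and 5 adipocyte genes. No kidney gene passed the filter.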

Additional observations from a re-analysis of the deposited data

Results flagged for a closer look

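In each group of 6 mice the highest and lowest normalized count of each of the 10 ligands was compared with its nearest neighbour, over 20 groups, and chance alone marks about 1 in 20. *Wnt2* in βCat-GOF was marked, because mouse 5 had 22.7 normalized counts and the next highest 6.96, a gap of 0.806 of the whole range. That value rests on 23 reads. *Wnt2b* in βCat-GOF was marked as well, because mouse 1 had 902 and the next highest 515, a gap of 0.652 of the range. The same mouse had the highest *Wnt4*, *Wnt6* and zG marker sum.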

How the results depend on the processing

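The number of ligands called higher was 0 with edgeR and 1 with DESeq2 without shrinkage, with DESeq2 and its prior, and with 1 surrogate variable. Each time this was *Wnt4*, with log2 fold changes of 0.79 (adjusted p = 0.021), 0.66 (0.022) and 1.02 (0.0058). Under the other edgeR settings, and without the mice whose labels extend another label or without βCat-GOF mouse 5, its adjusted p was not under 0.05. Leaving out each mouse in turn gave 0 to 0 ligands called higher and 0 to 0 called lower, with a *Wnt4* log2 fold change of 0.65 to 0.94 and an adjusted p of 0.06 to 0.17. Ranges were 0.20 to 0.58 for *Wnt2b*, 0.37 to 0.58 for *Wnt6*, −0.35 to −0.19 for *Wnt5a*, −0.56 to −0.33 for *Wnt5b*, −0.29 to −0.10 for *Wnt9a* and 0.30 to 0.60 for *Wnt11*, which passed the filter in 10 of 12 such fits. The value nearest 0 came without βCat-GOF mouse 1 for *Wnt2b* and without βCat-GOF mouse 2 for *Wnt5a*. Pathway genes other than the ligands called by edgeR numbered 12, and 19 with DESeq2, and 9 to 15 on leaving out each mouse. Genes called over the whole table numbered 551 with edgeR, 1233 with DESeq2, 67 against a fold of 1.4, 287 without Ctrl mouse 6 and 955 without βCat-GOF mouse 1. The share of *Wnt4* in Ctrl was 76.4% with the longest transcript as length. None of the 7 tested ligands changed direction under the alternatives run. Where calls differed between tools, the cause was not tested. Depth limits *Wnt2*, *Wnt3*, *Wnt10b* and *Wnt11*, which had at most 23 counts in a mouse. No paired analysis was possible because the labels give the groups no shared replicate numbers.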
